A study of Homo sapiens with 4 samples.

Results

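The genes described here are the 6 core genes of ISG15 conjugation: the modifier ISG15, its activating enzyme UBA7, its conjugating enzyme UBE2L6, the ligases HERC5 and HERC6, and the removing protease USP18. They are 6 of the 58735 genes listed in the deposited tables. They were chosen from the pathway with the differences between the groups below already known, so their fold changes are given as a description, without a test. HT8 is a human cell line that the labels assign to colon cancer. RNA-seq libraries were made from 2 samples with the genotype label control (source name HT8) and 2 with the label PPDPF knockdown (source name HT8-cas1). All 4 samples carry the same cell line label, and the labels name neither an added agent nor the means of knockdown. The labels do not say whether the libraries within each group are separate cultures. The spread and the p-values below may therefore reflect technical variation only.

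ISG15 is a small protein built of ubiquitin-like domains that is strongly induced by type I interferon. It is attached to lysines of other proteins by a cascade resembling that of ubiquitin, in which UBA7 activates ISG15, UBE2L6 carries it and a HERC ligase passes it to the target. HERC5, which sits on ribosomes, is the main ligase in human cells, whereas HERC6 is the main ligase in mice and is known for little ISG15 ligase activity in humans. USP18 cuts ISG15 from its targets and, separately from that activity, binds the interferon receptor subunit IFNAR2 and dampens its signalling. The genes of the cascade are themselves known interferon-induced genes.

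The 4 libraries held 17069628 to 19479906 reads in genes, recovered from the deposited FPKM (fragments or reads relative to exon length and to the depth of the library). PPDPF, the targeted gene, was at 237 and 266 FPKM in control replicates 1 and 2 and at 281 and 283 FPKM in knockdown replicates 1 and 2. It was thus not lower in the libraries labelled knockdown (log2 fold change 0.16, SE 0.06, limma adjusted p = 0.0940), and every direction below refers to the labels. PPDPF passed the threshold as higher in 3 alternative settings: voom on recovered reads (limma adjusted p = 0.00451), a filter of 5 FPKM (limma adjusted p = 0.0459), and without control replicate 2 (limma adjusted p = 0.0233). All 6 markers of colon epithelium were above 1 FPKM, with a summed level of 1922 and 2061 FPKM in the controls and 2214 and 2182 FPKM in the libraries labelled knockdown. Among them KRT8 and VIL1 rose and CDH1 fell, with log2 fold changes of 0.22, 0.16 and -0.13 (limma adjusted p = 0.0195, 0.0348 and 0.0377), and EPCAM, KRT18 and CDX2 did not pass (0.09, 0.11 and -0.17). Markers of other cell types summed to 1.78 and 1.86 against 1.03 and 1.03 FPKM for 6 leukocyte genes, 0.640 and 0.706 against 0.377 and 0.504 FPKM for 6 fibroblast genes, and 0.0456 and 0.121 against 0.185 and 0.108 FPKM for 4 endothelial genes. PTPRC, CD3E, MS4A1, COL1A2, THY1, DCN, CDH5 and KDR were listed at 0 in every library, and the leukocyte sum came mostly from CD14. The other genes of these lists had some reads: CD68, NKG7, COL1A1, COL3A1, PDGFRB, PECAM1 and VWF. PDGFRB was the highest of these, at 50 and 68 reads in the controls and 33 and 48 in the libraries labelled knockdown. CD14 fell, from 1.57 and 1.86 FPKM to 0.860 and 0.907 FPKM (log2 fold change -0.53, limma adjusted p = 0.0335), in the same direction as the 6 genes, and its part in the results was not tested. In bulk RNA, fewer cells expressing a gene and less RNA per cell cannot be told apart.

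All 6 genes were lower in both libraries labelled knockdown than in both controls. The extent differed among them. ISG15, HERC5, HERC6 and USP18 were at 0.617, 0.569, 0.571 and 0.512 of the control mean FPKM, while UBA7 and UBE2L6, the enzymes of activation and conjugation, were at 0.289 and 0.228. Among all 12777 genes tested, 33.8% had both libraries labelled knockdown below both controls, and 13.0% passed the limma threshold as lower, as did all 6 of these genes. The median log2 fold change was -0.84 over the 6 genes and 0.0011 over all tested genes. Since the genes were chosen with this contrast known, nothing is read from the count that passed or from these medians.

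**Figure D1:**
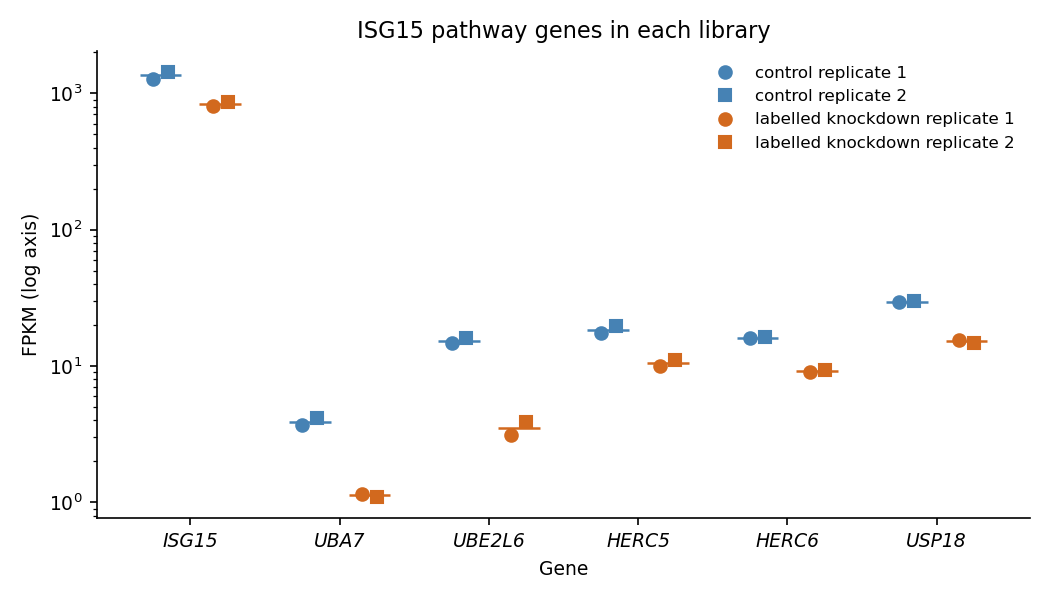
FPKM of the 6 genes on a log axis, with a point for each library and a bar at each group mean (n = 2 per group). For every gene both libraries labelled knockdown lie under both controls, with the widest separation for UBA7 and UBE2L6.

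The modifier itself was by far the most abundant. ISG15 (ENSG00000187608, GRCh38 chromosome 1, 1001138 to 1014540, plus strand) was at 1278 and 1435 FPKM in the controls and 805 and 869 FPKM in the libraries labelled knockdown. The groups did not overlap, and the lower control stood above the higher knockdown library. Mean levels were 1357 ± 111 and 837 ± 45.3 FPKM (SD, n = 2 each), with a log2 fold change of -0.70 (SE 0.07) on the scale of log2(FPKM + 1). These levels rested on 21146, 26546, 13066 and 13860 reads, or 0.122%, 0.136%, 0.0754% and 0.0812% of the reads of each library. By mean FPKM, ISG15 ranked 12 among all listed genes in control and 24 in the libraries labelled knockdown.

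UBA7, the E1 enzyme that activates ISG15 and starts the cascade, was the least abundant of the 6. It lies on the minus strand of GRCh38 chromosome 3, 49805207 to 49813946 (ENSG00000182179). Its level was 3.67 and 4.15 FPKM in the controls against 1.16 and 1.10 FPKM in the libraries labelled knockdown, so the groups stood well apart. The corresponding reads numbered 293, 371, 91 and 85, and the 95% Poisson intervals ran from 260 to 329 and 334 to 411 in control and from 73.3 to 112 and 67.9 to 105 in the libraries labelled knockdown, which covers counting error only. Mean levels were 3.91 ± 0.345 and 1.13 ± 0.0404 FPKM (SD, n = 2 each). The log2 fold change of -1.20 (SE 0.09) depends on the pseudocount because the gene is low, and it was -0.54 with a pseudocount of 5, -1.70 with 0.1 and -1.79 with voom on reads.

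UBE2L6, the E2 enzyme that takes ISG15 from UBA7, showed the lowest ratio of the 6. It lies on the minus strand of GRCh38 chromosome 11, 57551656 to 57568284 (ENSG00000156587). Control levels were 14.6 and 16.1 FPKM, and the libraries labelled knockdown held 3.11 and 3.89 FPKM. The groups did not overlap, and the replicates within a group differed far less than the groups did. Reads numbered 566, 694, 118 and 145, with 95% Poisson intervals of 97.7 to 141 and 122 to 171 in the libraries labelled knockdown. The means of 15.4 ± 1.01 and 3.50 ± 0.552 FPKM (SD, n = 2 each) gave a log2 fold change of -1.87 (SE 0.10).

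The ligases HERC5 and HERC6 are neighbours in the same orientation on GRCh38 chromosome 4, with 14005 bases between the end of HERC6 and the start of HERC5. HERC5 (ENSG00000138646, 88457117 to 88506163) was at 17.5 and 19.6 FPKM in the controls and 10.1 and 11.0 FPKM in the libraries labelled knockdown. HERC6 (ENSG00000138642, 88378739 to 88443111) was at 16.1 and 16.2 FPKM in the controls and 9.11 and 9.34 FPKM in the libraries labelled knockdown. Both ligases were lower to nearly the same extent, with log2 fold changes of -0.76 (SE 0.07) for HERC5 and -0.75 (SE 0.04) for HERC6. Mean levels were 18.5 ± 1.48 and 10.5 ± 0.696 FPKM for HERC5 (SD, n = 2 each). For HERC6 they were 16.1 ± 0.102 and 9.22 ± 0.158 FPKM (SD, n = 2 each), the tightest replicates of the 6 genes in control relative to their level. HERC5 divided by HERC6 was 1.09 and 1.21 in the controls and 1.10 and 1.18 in the libraries labelled knockdown, so that the groups overlapped in this ratio.

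USP18, the protease that opposes the cascade, was the second most abundant of the 6 and was also lower. It lies on the plus strand of GRCh38 chromosome 22, 18149899 to 18177397 (ENSG00000184979). Levels were 29.5 and 29.8 FPKM in the controls and 15.6 and 14.8 FPKM in the libraries labelled knockdown. The replicates of each group nearly coincided and the groups lay apart, with means of 29.6 ± 0.258 and 15.2 ± 0.548 FPKM (SD, n = 2 each) and a log2 fold change of -0.92 (SE 0.04). USP41, a closely similar paralog on the same chromosome, had 0 and 1 reads in the controls and 0 reads in both libraries labelled knockdown. The sources used here do not state how reads shared by such copies were counted. Exons of other annotated genes overlapped those of ISG15 by 36 bases (the pseudogene AL645608.3) and those of UBA7 by 109 bases (MIR5193), and both of these had 0 reads in every library.

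Ordered by mean FPKM, the genes ran ISG15, USP18, HERC5, HERC6, UBE2L6 and UBA7, in control and in the libraries labelled knockdown alike. ISG15 exceeded USP18, the next in order, 45.8-fold in control. Adjacent genes in the order differed beyond the range of their libraries, except HERC6 and UBE2L6 in control, where HERC6 in control replicate 1 and UBE2L6 in control replicate 2 both stood at 16.1 FPKM. In the libraries labelled knockdown HERC6 stood 2.63-fold above UBE2L6.

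The level of ISG15 relative to the other genes is given next, as a ratio of FPKM within a library. ISG15 divided by UBE2L6 was 87.2 and 89.3 in the controls and 259 and 223 in the libraries labelled knockdown, a 2.73-fold higher mean ratio. Divided by UBA7, it was 349 and 346 in the controls and 694 and 788 in the libraries labelled knockdown, 2.13-fold higher. Both ratios were higher in each library labelled knockdown than in each control. How often ratios between other genes separate in this way was not counted. ISG15 divided by HERC5 was 73.1 and 73.3 against 80.0 and 78.7. This ratio was also higher in each library labelled knockdown than in each control, but only 1.08-fold by mean. Relative to HERC6 the libraries overlapped, at 79.5 and 88.5 in the controls and 88.3 and 93.0 in the libraries labelled knockdown. Relative to the protease USP18 the ratio was 43.4 and 48.1 in the controls and 51.7 and 58.7 in the libraries labelled knockdown. These did not overlap either, with a 1.21-fold higher mean ratio in the libraries labelled knockdown. USP18 divided by UBE2L6 was 2.01 and 1.86 in the controls and 5.0 and 3.80 in the libraries labelled knockdown. HERC5 divided by UBE2L6 was 1.19 and 1.22 in the controls and 3.23 and 2.84 in the libraries labelled knockdown. The ratio to UBE2L6 was thus higher there for the ligase HERC5 as well as for the protease. These ratios are of RNA and not of protein, come from the same contrast and are given without a test.

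**Figure D2:**
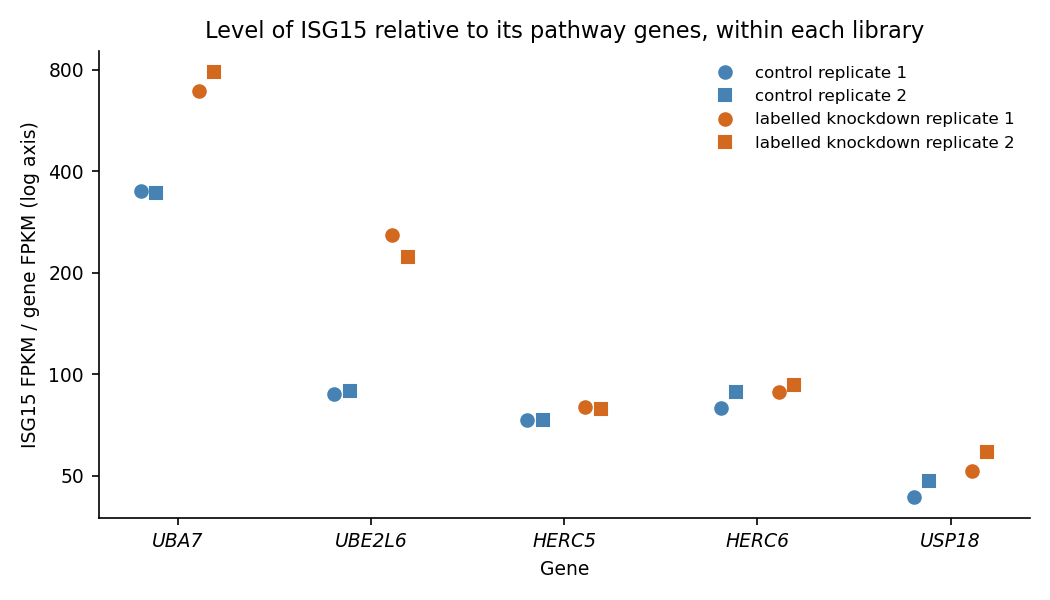
FPKM of ISG15 divided by that of each other pathway gene within the same library, on a log axis, with a point for each library. The ratios to UBA7 and UBE2L6 are 2.13-fold and 2.73-fold higher in the libraries labelled knockdown, while those to HERC5 and HERC6 differ 1.08-fold.

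Replicates of a group also differed in part of the genes. Control replicate 2 stood above control replicate 1 by 1.12-fold for ISG15, 1.13-fold for UBA7, 1.10-fold for UBE2L6 and 1.12-fold for HERC5, but by 1.01-fold for HERC6 and USP18. Between the libraries labelled knockdown, replicate 2 divided by replicate 1 ranged from 0.9502 (USP18) to 1.25 (UBE2L6). For tested genes at large, this ratio ran from 0.793 at the 5th to 1.25 at the 95th percentile in control and from 0.796 to 1.25 in the libraries labelled knockdown. Both libraries labelled knockdown lay below both controls for each of the 6 genes. A changed pseudocount, filter or block or a library left out therefore could not reverse the direction. All 6 genes were lower in the libraries labelled knockdown in each of the settings in which they could be fitted, which numbered 13 for each gene and 12 for UBA7, whose mean lay under a filter of 5 FPKM. The log2 fold change ranged over these settings from -0.78 to -0.56 for ISG15, -2.15 to -1.26 for UBE2L6, -0.84 to -0.60 for HERC5, -0.81 to -0.57 for HERC6 and -0.97 to -0.78 for USP18.

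**Figure D3:**
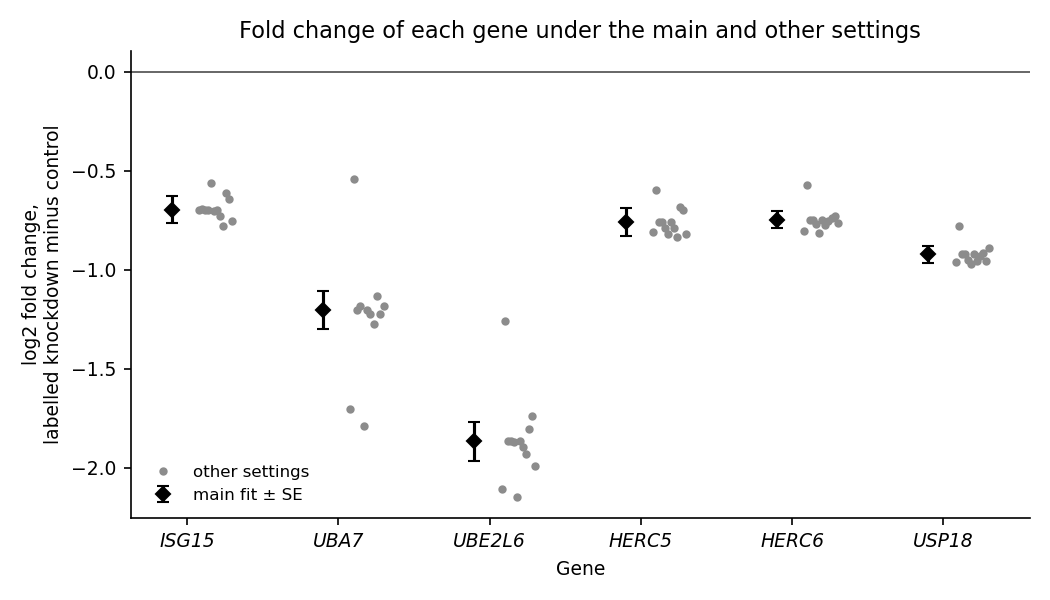
Log2 fold change of log2(FPKM + pseudocount), libraries labelled knockdown minus control, for each gene: black diamonds show the value of the limma fit ± SE and grey points the value in each alternative setting. Every point lies below 0, and UBA7 and UBE2L6 move most with the setting. The genes were chosen with this contrast known, and most settings could not reverse the direction.

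Promoter sequence is shown as a description. Interferon-stimulated genes are known to be induced through an element of repeated GAAA letters, bound by a complex that holds STAT2 and IRF9. RefSeq windows on GRCh38.p14, from 250 bases before to 50 bases after a transcription start, were matched for 4 of the 6 genes: ISG15, HERC5, HERC6 and UBE2L6, the last with 2 windows. UBA7 and USP18 are named only. Searched on both strands were GAAANNGAA (reverse complement TTCNNTTTC) and the letters TTCNNNGAA, which read alike on both strands, and which can share bases with the former. The windows of ISG15 (chr1:1013247-1013546), HERC5 (chr4:88456869-88457168) and HERC6 (chr4:88378602-88378901), all on the plus strand, read 5′ to 3′ as follows, with matches to the first motif in capitals.
ISG15: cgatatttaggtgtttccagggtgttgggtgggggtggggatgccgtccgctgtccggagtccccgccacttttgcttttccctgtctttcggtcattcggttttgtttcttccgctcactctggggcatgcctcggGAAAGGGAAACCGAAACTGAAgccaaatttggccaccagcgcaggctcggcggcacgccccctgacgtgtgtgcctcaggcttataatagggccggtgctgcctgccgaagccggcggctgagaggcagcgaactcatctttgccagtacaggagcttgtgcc
HERC5: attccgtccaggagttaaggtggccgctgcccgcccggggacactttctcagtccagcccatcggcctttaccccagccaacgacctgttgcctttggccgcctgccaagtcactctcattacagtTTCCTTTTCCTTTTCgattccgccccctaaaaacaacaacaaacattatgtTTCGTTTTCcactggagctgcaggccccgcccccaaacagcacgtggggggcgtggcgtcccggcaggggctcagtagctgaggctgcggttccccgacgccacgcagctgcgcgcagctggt
HERC6: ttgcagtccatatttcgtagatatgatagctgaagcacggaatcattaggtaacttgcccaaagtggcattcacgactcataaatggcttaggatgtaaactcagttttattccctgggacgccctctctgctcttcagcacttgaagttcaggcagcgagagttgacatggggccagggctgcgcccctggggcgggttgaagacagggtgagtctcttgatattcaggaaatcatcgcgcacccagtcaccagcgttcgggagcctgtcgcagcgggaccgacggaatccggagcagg

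The ISG15 window held 3 overlapping matches, starting at positions -113, -107 and -101 from the transcription start. The HERC5 window also held 3 matches, all on the opposite strand, at -124, -118 and -73 counted along the printed strand. Of all 35116 windows in the RefSeq table, 8.11% held at least 1 match, and 31 windows (0.0883%) held 3 or more. That cut of 3 equals the count in the ISG15 and HERC5 windows, and overlapping matches were counted separately. Neither the HERC6 window nor those of UBE2L6 held the letters, which says only that they are not within these bases. ISG15 and HERC5, whose windows have the letters, had log2 fold changes of -0.70 and -0.76. HERC6 and UBE2L6, whose windows lack them, had log2 fold changes of -0.75 and -1.87. Whether the letters bear on the fold change was not tested. The letters TTCNNNGAA were in none of the 5 windows and in 7.66% of all windows. A match is a description of the sequence and was not tested as a binding site.

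The partners of the pathway were described by 10 lists of related genes, which held 65 genes, 59 of them with the mean of at least 1 FPKM required for testing. Of these, 7 rose (11.9%) and 10 fell (16.9%), against 16.8% and 13.0% of all tested genes (29.9% either way). The partners had a median log2 fold change of 0.01. The lists were chosen with earlier results of these data known. Only 7 of the 17 calls were kept in every setting run, those of EIF2AK2, HERC3, IFIT1, IFIT3, JAK1, MX1 and USP21, so the remaining calls rest on the setting or on single libraries. With no filter on low values 3 partners rose and 5 fell, without control replicate 2 the counts were 6 and 5, and without knockdown replicate 1 they were 4 and 6. Without control replicate 1 they were 5 and 8, and without knockdown replicate 2 they were 3 and 8.

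Enzymes of other ubiquitin-like cascades are set beside all tested genes, of which 16.8% rose and 13.0% fell. With 9 genes per list, a count of 0 that fell is not read as a difference from that share. Of 9 other E1 enzymes, 1 rose and 0 fell in the limma fit (0 lower at an unadjusted p under 0.05 and 0 by voom). UBA1, the main E1 of ubiquitin, was 1.08-fold higher, at 71.0 ± 0.832 against 76.9 ± 0.617 FPKM (limma adjusted p = 0.0416), a call lost in 7 settings, among them each fit with a library left out. The SUMO-activating subunits SAE1 and UBA2 were at 55.6 and 55.9 FPKM and at 28.1 and 27.6 FPKM in control and the libraries labelled knockdown. Of 9 related E2 enzymes, 1 rose and 0 fell (1 lower at an unadjusted p under 0.05 and 1 by voom). UBE2L3, a close relative of UBE2L6 and an E2 of ubiquitin, was at 34.9 ± 0.295 and 35.6 ± 0.402 FPKM (log2 fold change 0.03, SE 0.03, limma adjusted p = 0.519). UBE2D3, another ubiquitin E2, was at 34.1 and 35.0 FPKM, and UBE2E1 rose from 26.9 ± 0.701 to 32.9 ± 1.65 FPKM (limma adjusted p = 0.0137). The UBE2E1 call was lost with no filter on low values and without control replicate 1 or knockdown replicate 2.

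Among the other HERC family members and ISG15 ligases, directions differed. HERC3, a small HERC protein encoded in the same region of chromosome 4 as HERC5 and HERC6, rose 1.64-fold, with means of 2.95 ± 0.133 and 4.83 ± 0.0994 FPKM (limma adjusted p = 0.00488). Its libraries were at 2.86 and 3.05 FPKM in control and 4.91 and 4.76 FPKM in the group labelled knockdown, the reverse of the order seen for HERC5 and HERC6. HERC2, a giant ligase of DNA repair, fell from 11.8 ± 0.115 to 9.76 ± 0.423 FPKM (limma adjusted p = 0.0189). The HERC2 call was lost with no filter on low values, without either control and without knockdown replicate 1. HERC1 and HERC4 did not pass in the limma fit, with log2 fold changes of 0.03 and 0.19 (limma adjusted p = 0.732 and 0.0949), and HERC4 passed as higher by voom (log2 fold change 0.22, limma adjusted p = 0.00395). TRIM25, a ligase of the RNA sensor RIG-I also reported to ligate ISG15, fell to 0.864 of control (limma adjusted p = 0.0451). The TRIM25 call was lost with no filter on low values and without control replicate 2 or either knockdown library. ARIH1, another reported ISG15 ligase, was at 4.20 and 4.22 FPKM.

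Of the other proteases reported to remove ISG15, 6 were tested. Of these, 0 rose and 1 fell in the limma fit (1 higher at an unadjusted p under 0.05 and 0 by voom). Over all tested genes, 16.8% rose and 13.0% fell. USP21 fell from 6.74 ± 0.0861 to 4.87 ± 0.116 FPKM (limma adjusted p = 0.00663), a ratio of means of 0.723. The more abundant USP5 and USP14 did not pass, at 51.7 and 53.2 FPKM and at 31.0 and 30.5 FPKM in control and the libraries labelled knockdown.

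Of 5 tested genes linked to USP18 and its action at the interferon receptor, 1 rose, 1 fell and 3 did not pass. Among all tested genes, 16.8% rose and 13.0% fell. STAT2, which recruits USP18 to the receptor, fell from 12.4 ± 0.725 to 8.96 ± 0.680 FPKM (log2 fold change -0.43, SE 0.07, limma adjusted p = 0.0123). The STAT2 call was lost with no filter on low values and without control replicate 2. JAK1, the receptor kinase, rose 1.35-fold, with means of 15.9 ± 0.281 and 21.5 ± 0.302 FPKM (limma adjusted p = 0.00275). The kinase TYK2 and SKP2, a ubiquitin ligase subunit that targets USP18, did not pass, with log2 fold changes of -0.06 and 0.04. IFNAR2, the subunit that binds USP18, was too low to test, at 0.234 and 0.210 FPKM in control and 0.201 and 0.217 FPKM in the libraries labelled knockdown (16 to 19 reads). It was singled out after its values were seen. STAT2 is also a subunit of the complex that binds the interferon element. IRF9, the DNA-binding subunit of that complex, lay under the filter at 0.749 and 0.885 FPKM against 0.275 and 0.466 FPKM, from 50, 66, 18 and 30 reads, and is named after its values were seen.

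Of the 13 tested genes in the list of proteins reported to carry ISG15, 1 rose and 6 fell, against 16.8% and 13.0% of all tested genes, with a median log2 fold change of -0.04. MX1, IFIT1, IFIT3, EIF2AK2 and DDX58, all among those that fell, are known interferon-induced genes. The dynamin-like antiviral GTPase MX1 fell from 13.6 ± 1.10 to 2.40 ± 0.167 FPKM (limma adjusted p = 0.000685). IFIT1, which binds foreign RNA caps, fell from 104 ± 9.60 to 57.9 ± 3.69 FPKM (limma adjusted p = 0.00278), and its relative IFIT3 from 95.3 ± 7.99 to 59.9 ± 3.68 FPKM (limma adjusted p = 0.00405). The RNA-activated kinase EIF2AK2 fell from 19.4 ± 0.458 to 14.1 ± 0.330 FPKM (limma adjusted p = 0.00302). The others that fell were DDX58, an RNA sensor, and PML, the scaffold of a nuclear body, and the 1 that rose was TSG101, a sorting protein. Calls of DDX58, PML and TSG101 were each lost in 3 or more settings. PCNA, the replication clamp, and PARP1, a DNA repair enzyme, did not pass, with log2 fold changes of -0.04 for both.

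Of the ubiquitin-like modifiers other than ISG15, 11 were tested. Of these, 2 rose and 0 fell in the limma fit (1 lower at an unadjusted p under 0.05 and 1 by voom). The shares that rose and fell over all tested genes were 16.8% and 13.0%. The polyubiquitin gene UBB rose 1.18-fold, with means of 185 ± 6.49 and 217 ± 1.29 FPKM (limma adjusted p = 0.00911), a call lost with no filter on low values. UFM1, a modifier of ribosomes at the ER, rose from 19.2 ± 0.499 to 22.5 ± 0.369 FPKM (limma adjusted p = 0.0166), a call lost in 3 of the fits with a library left out. RPS27A, a further ubiquitin gene, and FAU, which encodes a ubiquitin-like protein fused to a ribosomal one, were at 200 and 209 FPKM and at 166 and 162 FPKM in control and the libraries labelled knockdown. ISG15 stood above each modifier of the list in every library, since the highest value among them was 218 FPKM (UBB) and the lowest ISG15 value was 805 FPKM. UBD, an inducible modifier also called FAT10, was listed at 0 throughout. The chains ITGAL and ITGB2 of the receptor for secreted ISG15 were below the filter, with at most 1 read for ITGAL.

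**Figure D4:**
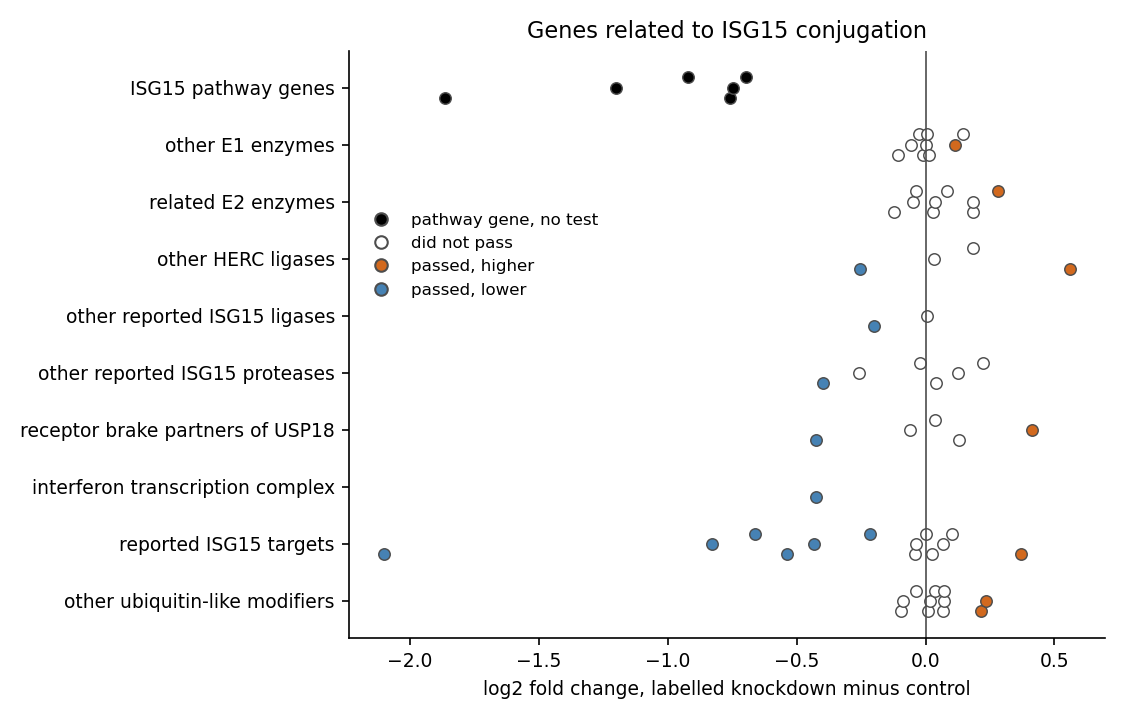
Log2 fold change of log2(FPKM + 1), libraries labelled knockdown minus control, with a point for each tested gene of each list; filled points passed the limma threshold, and the black points are the 6 pathway genes, shown without a test. The other E1 and E2 enzymes and modifiers lie near 0, while part of the targets lie with the pathway genes; STAT2 appears in 2 lists.

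The genes beside the pathway genes on their chromosomes were the 3 nearest protein-coding genes on each side, the pathway genes themselves left out, so that HERC5 and HERC6, which lie next to each other, have the same neighbours. Of these 30 genes, 19 were tested, of which 4 rose and 3 fell, against 16.8% and 13.0% of all tested genes, with a median log2 fold change of -0.06. Beside ISG15, HES4, a transcriptional repressor, and RNF223 rose, with log2 fold changes of 0.13 and 0.54 (limma adjusted p = 0.0396 and 0.0117). Near UBA7, the receptor kinase MST1R rose (log2 fold change 0.26, limma adjusted p = 0.0133). Near UBE2L6, the amino acid transporter SLC43A1 fell (log2 fold change -0.49, limma adjusted p = 0.0105). Around the ligases on chromosome 4, the cation channel PKD2 and PYURF fell, with log2 fold changes of -0.57 and -0.27 (limma adjusted p = 0.00254 and 0.00873), and the drug transporter ABCG2 rose by 0.40 (limma adjusted p = 0.0423). Of the 3 tested neighbours of USP18, 0 passed the limma threshold (0 at an unadjusted p under 0.05 and 0 by voom). The call of PKD2 was kept in every setting run, and the other 6 were lost in at least 1. HES4 was lost in 8 settings, ABCG2 in 6, MST1R in 4, RNF223 in 2, and PYURF and SLC43A1 in 1 each. Without control replicate 2, 0 neighbours rose (4 in the limma fit of all libraries at an unadjusted p under 0.05, and 4 by voom), without knockdown replicate 1 there was 1, and without control replicate 1 or knockdown replicate 2 there were 2.

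**Figure D5:**
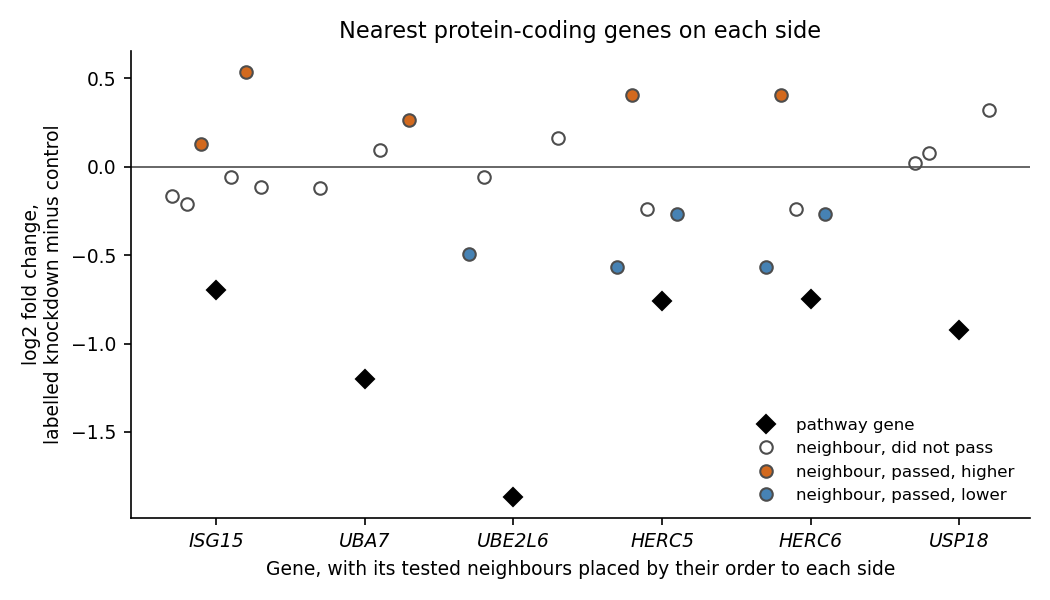
Log2 fold change of log2(FPKM + 1), libraries labelled knockdown minus control, for each pathway gene (diamonds, no test) and its tested neighbours (circles, filled where they passed the limma threshold), placed by their order to each side. Each diamond lies below all of its tested neighbours, and HERC5 and HERC6 share theirs. The pathway genes were chosen with this contrast known. Neighbours under the filter are not drawn, among them SMTNL1 beside UBE2L6. SMTNL1 was at 0.118 of the control mean from at most 28 reads, against 0.228 for UBE2L6.

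The genes with profiles most like those of the 6 were found among 7871 tested genes of at least 5 FPKM, by the Euclidean distance between log2(FPKM + 1) values over the 4 libraries, each centred on its mean. ISG15 was closest to IFI44, an interferon-induced gene (distance 0.0270), and INSIG1, a regulator of sterol synthesis (0.0317). UBA7 was closest to PLSCR1, a phospholipid scramblase (0.0354), and RNF213, a large ubiquitin ligase (0.0480), both known interferon-induced genes. For UBE2L6 the closest were the antiviral OAS2 (0.114) and IFI6 (0.237), both also interferon-induced. HERC5 lay nearest to PARP9, an interferon-induced ADP-ribosyltransferase family member (0.0304), and INSIG1 (0.0425). HERC6 was nearest to GPT2, an alanine transaminase (0.0245), and RASEF (0.0351), and USP18 to the fatty acid transporter SLC27A2 (0.0569) and the desaturase SCD5 (0.0668). Likeness over 4 libraries of 2 groups mostly reflects a similar difference between the groups.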

How the data were processed

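RNA-seq libraries of HT8 cells, 2 control and 2 labelled PPDPF knockdown, were grouped by the genotype label. The authors deposited FPKM per gene in a table per library, per the file headers. HISAT2 2.0.5 and the build hg18 appear in the submitters' processing notes. The sources used here give no counter, strand setting or filter. All 58735 gene IDs matched GENCODE 29, so its GRCh38 coordinates are printed and not those of hg18. FPKM times the union exon length and a divisor estimated for each library gave whole reads for 100% of values above 0 (tolerance 0.01 of a read), in totals of 17069628 to 19479906 per library. Replicates of a group differed beyond sampling noise (chi-square per gene 2.63 and 2.46).

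Genes with a mean of at least 1 FPKM were fitted as log2(FPKM + 1) with limma-trend (limma 3.58.1, R 4.3.3), with group as the only term, leaving 2 residual degrees of freedom. Tests were two-sided, with Benjamini-Hochberg adjustment over all 12777 genes and a threshold of 0.05. Levels are mean ± SD, and ratios use unlogged FPKM.

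The genes, lists and motifs were chosen with earlier results of these data known. Some listed genes are not reported here and were left out of the list counts. Named are the 6 pathway genes, PPDPF, up to 4 passing genes per list by p and up to 2 others by level, passing neighbours, genes with overlapping exons and the 2 closest profiles per pathway gene. The 12 alternative settings were a pseudocount of 0.1 or 5, no filter, a filter of 5 FPKM, quantile normalization, voom on recovered reads with scaling by a trimmed mean of log ratios (TMM), scaling to non-mitochondrial reads, the replicate number as a block, and each library left out in turn. Figures were drawn with matplotlib 3.10.9.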

Additional observations from a re-analysis of the deposited data

How the results depend on the processing

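The 6 pathway genes kept their direction in every setting in which they could be fitted, and 0 called partner or neighbouring genes reversed. For the 6, chosen with this contrast known, a changed pseudocount, filter or block or a library left out could not reverse the direction. The median log2 fold change of the 6 was -0.84 and moved to -0.65 with a pseudocount of 5, from -0.83 to -0.88 with a library left out. With no filter on low values, 1134 genes rose and 734 fell over all genes (2152 and 1662 in the limma fit), 3 partners rose and 5 fell (7 and 10), and 0 neighbours rose (4). In the filtered limma fit, 4 neighbours were higher at an unadjusted p under 0.05, and voom called 4. With a library left out, in which a lone library is assumed to vary like the other group, the genes that rose numbered 1141 to 1345 and those that fell 775 to 919. The partners that rose numbered 3 to 6 and those that fell 5 to 8, and 0 to 2 neighbours rose. The fewest falling partners came without control replicate 2, and the fewest rising ones without knockdown replicate 2. Scaled to non-mitochondrial reads, 2 neighbours rose, and over all genes 1881 rose and 2034 fell. With the replicate number as a block, 1899 genes rose and 1405 fell, 6 partners rose and 9 fell, and 2 neighbours rose. Same-numbered libraries did not deviate together (Pearson r -0.0021 across genes, which are not independent replicates). This value cannot show whether same-numbered libraries were cultured or prepared together. The cause of these shifts was not tested. A shorter motif, GAAANNGA, was found in the same number of pathway genes, 2 of 4. It was in 23.9% of all genes with a window and in 20.3% of all windows. Depth limits UBA7, which rested on 85 and 91 reads in the libraries labelled knockdown, and the genes under the filter.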
